A study of Rattus norvegicus with 16 samples.

Results

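Chemokine genes, endothelial adhesion genes and other response genes of the transcription factor NF-κB were followed in isolated rat pancreatic islets. The 10 genes were Cxcl10, Cx3cl1, Ccl2, Ccl20, Cxcl1, Cxcl2, Nfkbia, Icam1, Vcam1 and Sod2. Each was taken as the probe set that the array's annotation pairs with its symbol, which gave 1 probe set a gene: 10 genes of 10411 that the annotation names, and 10 probe sets of 15923. Islets carried an adenovirus with PPARγ, a ligand-activated nuclear receptor, or an empty (null) adenovirus. Either virus was given at 50 particles per cell over 32 h, and 16 h in medium followed with the PPARγ agonist GW347845 at 200 nM or with its vehicle, DMSO at 0.004%. The groups were PPARγ virus with GW347845 (4 arrays), PPARγ virus with vehicle (4), null virus with GW347845 (3) and null virus with vehicle (3). All 14 arrays came from infected islets. The labels give neither the species nor the promoter of the viral PPARγ, and nothing in them ties replicates to different animals or islet isolations, so p-values may measure technical spread only.

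Chemokines are small secreted proteins that attract leukocytes through receptors on the leukocyte surface. In unstimulated cells NF-κB is held in the cytoplasm by inhibitor proteins, and inflammatory cytokines release it to the nucleus, where it switches on chemokine, adhesion and protective genes together with the gene of its own inhibitor, Nfkbia. Isolated islets are known to make such chemokines in culture, and agonist-bound PPARγ is known in macrophages to repress some NF-κB response genes.

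Promoter windows are shown for Cxcl10, Nfkbia and Cx3cl1, which the virus comparison below turns on, and for Cxcl1, to show where NF-κB-type motifs lie. Each window runs 5′ to 3′ on the strand of the gene, from 250 bases before to 50 bases after the annotated start (RefSeq, rat build GRCr8). Capitals mark matches, on either strand, to the κB motif GGANNTTCC and to GAAANNGAA, a core of the interferon-stimulated response element (ISRE).
Cxcl10, chr14:15988816-15989115, plus strand: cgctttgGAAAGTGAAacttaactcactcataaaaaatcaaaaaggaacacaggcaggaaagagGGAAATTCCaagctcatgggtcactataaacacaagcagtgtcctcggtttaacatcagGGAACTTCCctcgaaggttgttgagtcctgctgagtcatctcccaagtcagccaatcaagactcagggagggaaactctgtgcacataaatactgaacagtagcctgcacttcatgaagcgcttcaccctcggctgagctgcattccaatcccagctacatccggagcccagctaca
Nfkbia, chr6:78597023-78597322, minus strand: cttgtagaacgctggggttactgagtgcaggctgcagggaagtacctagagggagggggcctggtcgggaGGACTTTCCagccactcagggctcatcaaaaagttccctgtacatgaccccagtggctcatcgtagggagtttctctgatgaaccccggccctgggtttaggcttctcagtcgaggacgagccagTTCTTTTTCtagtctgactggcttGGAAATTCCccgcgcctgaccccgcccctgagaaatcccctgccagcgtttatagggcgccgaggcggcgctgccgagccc
Cxcl1, chr14:17479272-17479571, minus strand: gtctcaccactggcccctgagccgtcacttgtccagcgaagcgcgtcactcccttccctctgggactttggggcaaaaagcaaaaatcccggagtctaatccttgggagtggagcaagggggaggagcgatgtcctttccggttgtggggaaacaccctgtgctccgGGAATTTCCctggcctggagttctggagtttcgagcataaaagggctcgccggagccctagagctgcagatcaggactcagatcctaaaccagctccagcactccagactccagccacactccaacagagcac
Cx3cl1, chr19:10242771-10243070, minus strand: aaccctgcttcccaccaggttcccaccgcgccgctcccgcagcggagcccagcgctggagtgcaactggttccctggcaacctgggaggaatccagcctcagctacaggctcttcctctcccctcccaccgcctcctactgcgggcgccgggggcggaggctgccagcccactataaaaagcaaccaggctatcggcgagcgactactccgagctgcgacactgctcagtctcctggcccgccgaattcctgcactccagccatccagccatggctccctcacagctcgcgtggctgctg

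The RefSeq table held windows of 9 of the 10 genes, all but Ccl2. The κB letters were present in 4 of the 9 windows, those of Cxcl10, Nfkbia, Cxcl1 and Icam1, against 4.09% of 33469 rat promoter windows of the same length. With the annotated start at 0, Cxcl10 held κB matches from -186 to -178 and from -127 to -119. In Nfkbia they lay from -180 to -172 and from -31 to -23, in Cxcl1 from -83 to -75 and in Icam1 from -218 to -210. The ISRE core was found in 3 of 9 windows, against 9.71% of all, from -243 to -235 in Cxcl10, from -55 to -47 in Nfkbia and from -45 to -37 in Vcam1. No match of one motif overlapped a match of the other. The Cx3cl1 window held neither motif. A match describes letters in the window and is no measured binding site. Other forms of either motif were not searched, so a window without a match may still hold them.

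**Figure D1:**
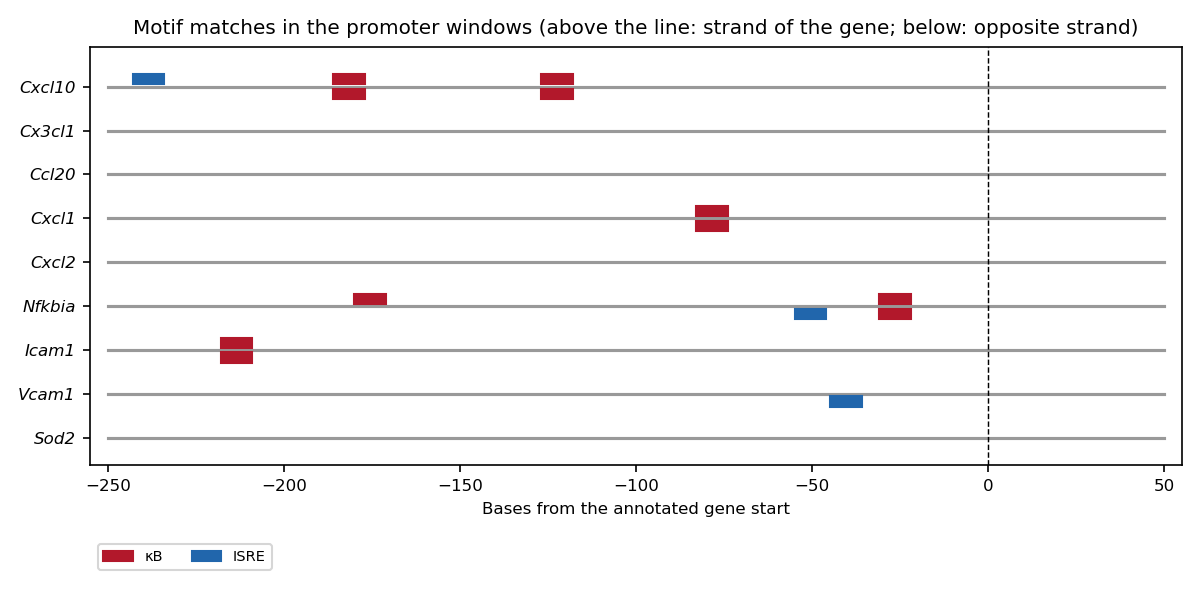
Positions of motif matches in the promoter windows of 9 genes, in bases from the annotated start (x axis). Boxes above a line lie on the strand of the gene and boxes below it on the opposite strand; κB letters are in 4 of the 9 windows (Cxcl10, Nfkbia, Cxcl1 and Icam1) and the ISRE core in 3 (Cxcl10, Nfkbia and Vcam1).

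Values are linear intensities that the authors had scaled to a 2% trimmed mean of 150 in each array, and medians lay between 56.4 and 67.5. Signal ratios of 3′ to 5′ control probe sets were 8.36 to 18.9 for Gapdh and 7.58 to 14.9 for actin. The highest Gapdh ratio was that of null virus array 3 with GW347845, the lowest array of its group for each of the 10 genes. The part of RNA quality in these values was not tested. Pparg read 4593.4 to 6199.1 in PPARγ virus arrays and 25.6 to 51.4 in null virus arrays, as labelled. The beta cell markers Ins1, Ins2 and Iapp were far above 39.3, the filter limit of the test (the 40th percentile of all values), in all 14 arrays. Markers of other cell types were measured too: of 13 leukocyte markers on the array, Cd68, Lyz2, Csf1r, Aif1 and Fcer1g exceeded 39.3 in all 14 arrays, while Ptprc (12.2 to 29.2) and Cd3e (0.4 to 9.9) exceeded it in 0. The summed intensity of the non-beta islet hormones Gcg, Sst, Ppy and Pyy set 4 arrays apart. It was 453 and 942 in the PPARγ virus arrays numbered 2 (with GW347845 and with vehicle), 2281 and 2401 in those numbered 4, and 4569 to 9788 in the other 10. One further array had been deposited with identical values as null virus replicate 2 under both media and was left out.

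The first question was what the PPARγ virus did to these genes. Averaged over both media, Cxcl10 fell 1.55-fold and Nfkbia fell 1.47-fold with the PPARγ virus. Vcam1 was too dim to test, and Cx3cl1, which was 2.85-fold higher with the PPARγ virus, entered the test only through the PPARγ virus arrays and is counted apart. Of the 8 other genes, 2 thus passed, where 1.53% of all 10078 tested probe sets did (limma, Benjamini-Hochberg adjusted p under 0.05). Folds and differences are on the log2(intensity + 4.6) scale, which understates those of dim genes such as Cx3cl1. The tests take the 14 arrays as independent. Arrays of one virus and number deviated together, however, and with the number within each virus as a random block 1 of the 8 passed, Cxcl10, in a fit where 0.496% of all probe sets did. With such arrays averaged first, 0 of the 8 passed (limma), against 0.119% of all. Unadjusted p under 0.05 were then found for 2 of the 8, Cxcl10 and Nfkbia, and for 6.23% of all probe sets. In bulk RNA, fewer cells of a type and less RNA per cell cannot be told apart.

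Cxcl10 encodes a chemokine that draws activated T cells and natural killer cells through the receptor CXCR3. In PPARγ virus islets with GW347845 it read 265.5, 221.9, 214 and 271, and with vehicle 245.1, 168.4, 168.7 and 224.4. In null virus islets with GW347845 it read 351.2, 340 and 387.7, and with vehicle 363.9, 277.5 and 342.1. Every PPARγ virus array lay below every null virus array, in each medium and over both, with 271 the highest PPARγ virus value and 277.5 the lowest null virus value. Over both media 0.992% of all tested probe sets had no overlap between the viruses, and in vehicle alone 4.62% had none. The null virus array left out read 270.2, below the 6 null virus arrays used and under the highest PPARγ virus array.

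The group means of Cxcl10 were 243 ± 29.3 (PPARγ virus, GW347845) and 202 ± 39.1 (PPARγ virus, vehicle; SD, n = 4 each), against 360 ± 24.9 (null virus, GW347845) and 328 ± 44.9 (null virus, vehicle; SD, n = 3 each). The 2 PPARγ virus groups overlapped, and so did the 2 null virus groups. The log2 difference over both media was -0.63 ± 0.11 (SE; limma adjusted p = 0.00795). It was called in each of 14 fits that left out 1 array (-0.69 to -0.59, adjusted p 0.00514 to 0.033). With the random block the limma adjusted p was 0.0371, and with arrays of one virus and number averaged it was 0.22. An exact two-sided permutation test of those averages, 4 against 3, gave p = 0.0571, the smallest it allows.

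Within one medium the Cxcl10 difference did not pass over all probe sets. It was -0.70 ± 0.15 (SE; limma adjusted p = 0.227) in vehicle and -0.56 ± 0.15 (SE; limma adjusted p = 0.15) in GW347845. The exact permutation p was 0.0571 in each medium, the smallest that 4 arrays against 3 allow, and 0.114 adjusted over 4 comparisons.

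Nfkbia encodes IκBα, the inhibitor that holds NF-κB in the cytoplasm, and is itself an NF-κB response gene. It read 197.9, 298.7, 285.6 and 257.9 with the PPARγ virus and GW347845, and 217.2, 262, 288.5 and 328.5 with the PPARγ virus and vehicle. Null virus arrays read 406.1, 370.2 and 445.4 with GW347845 and 345.8, 322.3 and 469 with vehicle. In GW347845 the viruses did not overlap, as for 9.82% of all tested probe sets. In vehicle 1 PPARγ virus array (number 4, 328.5) stood above the lowest null virus array (number 3, 322.3). The log2 difference over both media was -0.55 ± 0.12 (SE; limma adjusted p = 0.0378).

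The Nfkbia call lay close to its threshold. It held without PPARγ virus array 2 with GW347845, PPARγ virus array 4 with vehicle or null virus array 3 with vehicle, and was lost without any of the other 11 (limma adjusted p 0.0513 to 0.113; log2 difference -0.61 to -0.47 over all 14 fits). It was also lost with the random block (limma adjusted p = 0.175), with averaged arrays (0.38) and after centring arrays on their medians (0.0938). All these values kept the lower level with the PPARγ virus. In vehicle alone the log2 difference was -0.46 ± 0.17 (SE; limma adjusted p = 0.942), and in GW347845 alone -0.65 ± 0.17 (SE; limma adjusted p = 0.14).

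Cx3cl1 encodes fractalkine, a chemokine that is anchored in the membrane or shed and acts through CX3CR1 on monocytes, T cells and microglia. With the PPARγ virus it read 142.3, 40.1, 128.7 and 31 in GW347845, and 43, 31.8, 46.8 and 18.4 in vehicle. With the null virus it read 11, 7.8 and 17.8 in GW347845, and 21.9, 9.9 and 20.6 in vehicle. In GW347845 all 4 PPARγ virus arrays stood above the null virus arrays, and 9.82% of all tested probe sets had no overlap there in either direction. Arrays 1 and 3 stood far above the other 2. In vehicle the viruses overlapped at array 4.

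Only 5 arrays had Cx3cl1 above the filter limit of 39.3, all of the PPARγ virus, so the gene entered the test through the group where it was high and had to differ to be tested. All 6 null virus values were under the limit, so the folds below are against a dim group. Its log2 difference was 1.51 ± 0.33 (SE; limma adjusted p = 0.0368) over both media and 2.20 ± 0.47 (SE; limma adjusted p = 0.0491), or 4.58-fold, in GW347845. In GW347845 0.705% of all probe sets passed, and 0 of the 8 other genes did (limma), 2 of which (Cxcl10 and Nfkbia) had an unadjusted p under 0.05, as 9.19% of all did. In vehicle it was 0.83 ± 0.47 (SE; limma adjusted p = 1). With the random block the Cx3cl1 difference in GW347845 passed (limma adjusted p = 0.025; 0.724% of all probe sets) and the mean over both media did not (0.142). With averaged arrays the mean over both media did not pass either (0.342). Both calls were lost with a pseudocount of 16 (log2 difference 1.13, limma adjusted p = 0.0503 over both media; 1.66 and 0.069 in GW347845) and without the filter on dim probe sets (0.0505 and 0.0679).

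Array by array, the Cx3cl1 calls were easily lost. The mean over both media passed without PPARγ virus array 2 or 4 with GW347845 or array 4 with vehicle, and failed without any of the other 11 (limma adjusted p 0.0611 to 0.0948). The difference in GW347845 passed without PPARγ virus array 2 or 4 with GW347845 and failed without any of the other 12 (limma adjusted p 0.0501 to 0.224). The log2 difference itself stayed between 1.35 and 1.69 over both media and between 1.87 and 2.55 in GW347845.

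**Figure D2:**
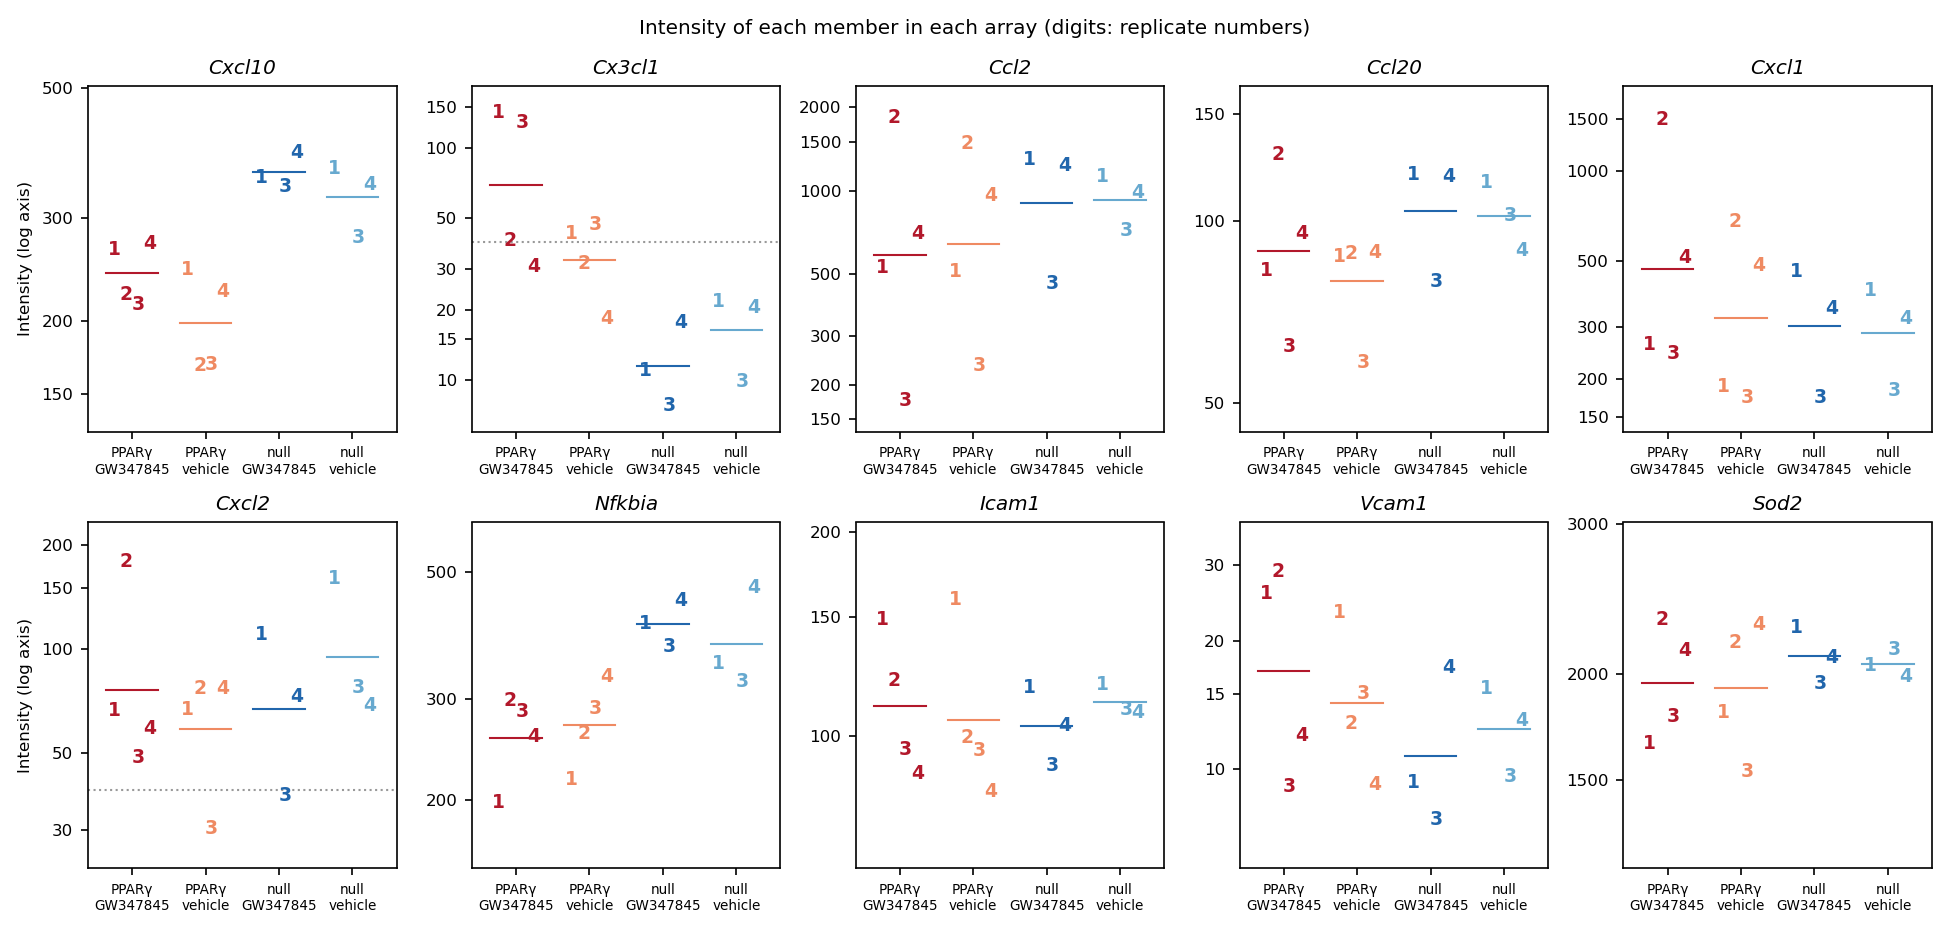
Intensity of the 10 genes in each of 14 arrays (log axes, a scale for each panel); digits are replicate numbers, bars are geometric means and the dotted line is the filter limit of 39.3. Cxcl10 shows no overlap between the viruses (168.4 to 271 against 277.5 to 387.7), Cx3cl1 is above the limit in 5 PPARγ virus arrays alone, and Ccl2 and Cxcl1 spread widely within groups.

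The other chemokines varied widely between replicate numbers and had no virus call. Ccl2, the monocyte chemokine that acts through CCR2, read 530.1, 1833.9, 176 and 700.7 with the PPARγ virus and GW347845, and 513.7, 1479.8, 233.9 and 958.6 with the PPARγ virus and vehicle. Null virus arrays 1, 3 and 4 read 1291.1, 461.5 and 1235.6 in GW347845 and 1122.8, 717.4 and 986.1 in vehicle. Number 3 was the lowest array in 4 of 4 groups and number 2 the highest in both PPARγ virus groups. The virus difference over both media was -0.57 ± 0.48 on the log2 scale (SE; limma adjusted p = 0.721). Without PPARγ virus arrays 2 and 4 it was -1.48 ± 0.37 (SE, limma adjusted p = 0.0504), where 4.2% of all probe sets passed. That setting was chosen after seeing the data and leaves out the highest Ccl2 values of the PPARγ virus in each medium. A more negative difference therefore had to follow.

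Cxcl1, a neutrophil chemokine that acts through CXCR2, followed the same order of numbers. It read 262.6, 1488.8, 243.8 and 512.9 with the PPARγ virus and GW347845, and 188.9, 678.6, 173.3 and 482 with the PPARγ virus and vehicle. Null virus arrays read 460.9, 173.3 and 344.9 in GW347845 and 398.4, 183.8 and 320.1 in vehicle. Number 3 was again lowest in 4 of 4 groups, and number 2 highest in both PPARγ virus groups. The log2 difference between viruses was 0.40 ± 0.42 (SE; limma adjusted p = 0.795) over both media. Without PPARγ virus arrays 2 and 4, a setting chosen after seeing the data, it was -0.45 (limma adjusted p = 0.371). Those arrays held the 2 highest Cxcl1 values of the PPARγ virus in each medium, so a lower difference had to follow. Neither difference passed.

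Cxcl2, which also acts through CXCR2, ranged from 30.3 to 178.4 (median 66.65) with the PPARγ virus and from 37.9 to 160.2 (median 75.25) with the null virus. Ccl20, which attracts CCR6-bearing T and B cells, ranged from 58.2 to 128.3 (median 87.8) with the PPARγ virus and from 79.4 to 119.1 (median 108.65) with the null virus. In vehicle the viruses did not overlap for Ccl20 (58.2 to 88.6 against 89.1 to 115.4), as for 4.62% of all tested probe sets. Its log2 difference there, -0.34 ± 0.22 (SE), did not pass (limma adjusted p = 1). Cxcl2 differed by -0.24 ± 0.32 and Ccl20 by -0.27 ± 0.16 over both media (SE; limma adjusted p = 0.85 for Cxcl2 and 0.532 for Ccl20).

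The spread within groups was wide for several of these genes. The within-group SD of Ccl2 was 1.06 on the log2 scale, at the 99.6th percentile of all tested probe sets, and that of Cxcl1 was 0.94, at the 99.3rd. Cx3cl1 (0.71) and Cxcl2 (0.69) lay at the 97.9th and 97.8th percentiles. Cxcl10 (0.20), Sod2 (0.20) and Nfkbia (0.24) lay near the median of 0.22. The SDs of Ccl20 (0.32) and Icam1 (0.29) were between these.

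**Figure D3:**
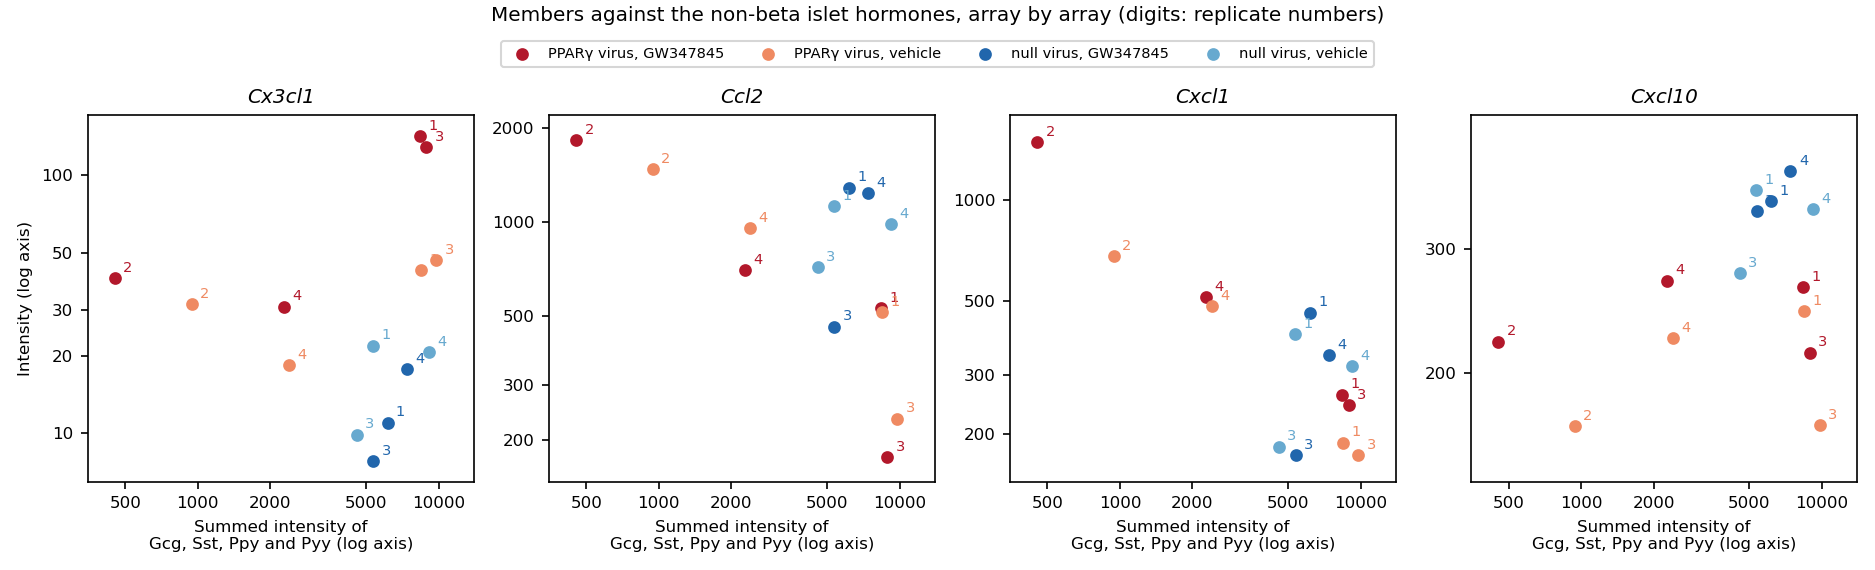
Intensity of Cx3cl1, Ccl2, Cxcl1 and Cxcl10 against the summed intensity of Gcg, Sst, Ppy and Pyy in each of 14 arrays (log axes; digits are replicate numbers). In PPARγ virus arrays Ccl2 and Cxcl1 are highest in number 2, where the hormone sum is 453 and 942, and Cx3cl1 is highest in numbers 1 and 3, where it is 8356 to 9788.

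In the 8 PPARγ virus arrays the non-beta hormones moved with several of these genes. The hormone sum was 8356, 453, 8899 and 2281 in arrays 1 to 4 with GW347845, and 8451, 942, 9788 and 2401 with vehicle. Ccl2 and Cxcl1 were highest where the sum was lowest, and Cx3cl1 was highest in arrays 1 and 3, where the sum was highest. Arrays of one number deviated together, so this order rests on 4 numbers. Null virus arrays had sums of 6143, 5361 and 7412 (GW347845) and 5325, 4569 and 9165 (vehicle), with Cx3cl1 at most 21.9. There the order of Ccl2 and Cxcl1 differed: number 3 had the lowest sum in each medium and also the lowest Ccl2 and Cxcl1. Without PPARγ virus arrays 2 and 4, a setting chosen after seeing the data, 3 of the 8 genes beside Cx3cl1 passed over both media, where 4.2% of all probe sets tested in that setting did. They were Cxcl10 (-0.62, limma adjusted p = 0.0256), Nfkbia (-0.67, 0.033) and Sod2 (-0.30, 0.0453). The arrays left out held the 2 highest Sod2 values of the PPARγ virus in each medium. A more negative Sod2 difference therefore had to follow, and its p is no evidence of a difference. They also held the highest Nfkbia value of the PPARγ virus in each medium. Cx3cl1 differed by 2.16 (limma adjusted p = 6.66e-04), but the arrays left out held its lowest PPARγ virus values in each medium. It also entered the test only through PPARγ virus arrays, so that p is no evidence of a difference. The part of the hormone-bearing cells in these results was not tested.

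Markers of other cells were compared over the same groups. The leukocyte sum was 717 to 1122 and 736 to 1310 with the PPARγ virus (GW347845 and vehicle), against 632 to 1033 and 757 to 1079 with the null virus, and 0 of 8 tested leukocyte markers passed over both media. Of 6 tested duct markers 1 rose with the PPARγ virus, Krt19 (log2 difference 1.08 ± 0.19 SE, limma adjusted p = 0.00863, and 0.0361 with the random block). Of 5 tested beta cell markers 1 fell, the transcription factor gene Pdx1 (-0.52 ± 0.11 SE, limma adjusted p = 0.0313, and 0.142 with the random block). Endothelial sums were 415 to 598 and 327 to 530 with the PPARγ virus (GW347845 and vehicle) and 276 to 504 and 257 to 462 with the null virus. Of 6 endothelial markers on the array, Pecam1 and Vwf exceeded 39.3 in 0 of 14 arrays, Kdr in 14, Plvap in 13, Eng in 11 and Flt1 in 10. None of the 4 tested passed over both media; the smallest p was that of Plvap (log2 difference 1.14 ± 0.30 SE, limma adjusted p = 0.0812). The part of these cells in the chemokine values was not tested.

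The adhesion genes and Sod2 showed no virus call. Icam1, the ligand of leukocyte integrins on endothelium, ranged from 83.1 to 159 (median 97.6) with the PPARγ virus and from 90.7 to 119.1 (median 109.05) with the null virus. Its log2 difference over both media was 0.01 (95% interval -0.30 to 0.32; limma adjusted p = 0.989). Number 1 was its highest array in 4 of 4 groups. Vcam1, the endothelial ligand of integrin α4β1, was between 7.6 and 29.1, above the limit in 0 of 14 arrays, and was not tested. Sod2, the mitochondrial superoxide dismutase, ranged from 1535.2 to 2319.3 (median 1965.15) with the PPARγ virus and from 1950.2 to 2266.2 (median 2067.1) with the null virus. Its log2 difference was -0.10 (95% interval -0.31 to 0.11; limma adjusted p = 0.776).

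Of the 8 tested genes beside Cx3cl1, 6 were lower and 2 higher with the PPARγ virus over both media, with a median log2 difference of -0.26 beside -0.01 for all tested probe sets. In vehicle 0 of 8 passed (limma), where 0.0397% of all probe sets did. There 2 of the 8, Cxcl10 and Nfkbia, had an unadjusted p under 0.05, as 4.43% of all probe sets did. The median of the 8 was -0.40 in vehicle and -0.16 in GW347845, beside 0 and -0.03 for all tested probe sets.

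**Figure D4:**
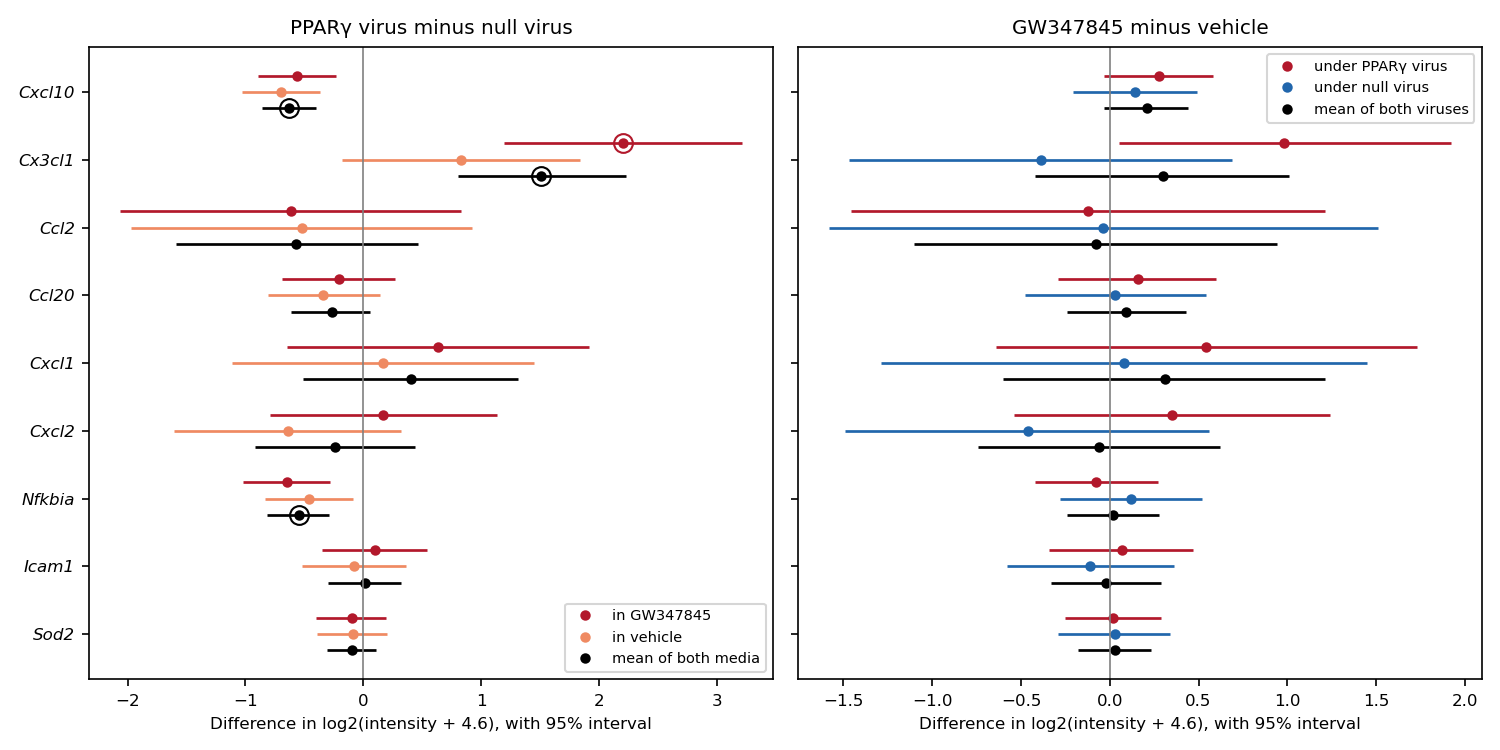
Differences in log2(intensity + 4.6) with 95% intervals for the 9 tested genes, PPARγ virus minus null virus (left) and GW347845 minus vehicle (right). Rings mark limma adjusted p under 0.05: Cxcl10 (-0.63), Nfkbia (-0.55) and Cx3cl1 (1.51) over both media and Cx3cl1 (2.20) in GW347845, with no ring for the compound.

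The second question was what the agonist did. GW347845 changed 0 of 9 genes under the PPARγ virus and 0 of 9 under the null virus (limma), where 0.0595% and 0% of all probe sets passed. Cx3cl1 exceeded the filter limit only in 3 PPARγ virus arrays with GW347845 and 2 with vehicle, so its unadjusted p is counted apart. Under the PPARγ virus 0 of the 8 other genes had an unadjusted p under 0.05, where 2.93% of all probe sets did, and Cx3cl1 had one. Under the null virus 0 of 9 had, against 0.943% of all. Over both viruses 0 of 9 passed, where 0.0198% of all did, and 0 had an unadjusted p under 0.05.

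Arrays of one number pair the media within a virus, so the compound was also fitted with the number as a block within each virus. Under the PPARγ virus 0 of 9 passed with the block (limma), where 0.397% of all probe sets did. Beside Cx3cl1, which also had one, unadjusted p under 0.05 were found for 2 of 8 genes (Cxcl1 and Cxcl10) and for 8.71% of all. Over both viruses 0 of 9 passed (0.139% of all probe sets), and Cxcl10 and Cxcl1 had an unadjusted p under 0.05, as 7.19% of all did.

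Under the PPARγ virus, Cx3cl1, Cxcl1 and Cxcl10 were higher with GW347845 in 4 of 4 pairs of the same number, as were 7.76% of all tested probe sets. Cx3cl1 read 142.3 against 43, 40.1 against 31.8, 128.7 against 46.8 and 31 against 18.4. The gain was widest in pairs 1 and 3, 3.31-fold and 2.75-fold, and 1.26-fold and 1.68-fold in pairs 2 and 4. Its mean log2 difference was 0.98 (95% interval 0.05 to 1.92, limma adjusted p = 1; with the block 0.49 to 1.48 and 0.153). Under the null virus Cx3cl1 was lower with GW347845 in 3 of 3 pairs, as were 11.5% of all tested probe sets (-0.39, 95% interval -1.47 to 0.69; limma adjusted p = 1), with all 6 values under the filter limit.

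Cxcl1 read 262.6 against 188.9, 1488.8 against 678.6, 243.8 against 173.3 and 512.9 against 482 in the 4 PPARγ virus pairs, GW347845 against vehicle. The widest step was 2.19-fold, in pair 2. The mean log2 difference was 0.54 (95% interval -0.64 to 1.73, limma adjusted p = 1; with the block 0.25 to 0.83 and 0.189). Cxcl10 was higher by 0.11 to 0.39 on the log2 scale in the 4 pairs, with a mean of 0.28 (95% interval -0.03 to 0.58, limma adjusted p = 1; with the block 0.09 to 0.46 and 0.339). Its exact permutation p over the 8 arrays was 0.171, and 0.5 under the null virus, where 3 arrays against 3 cannot go below 0.1.

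**Figure D5:**
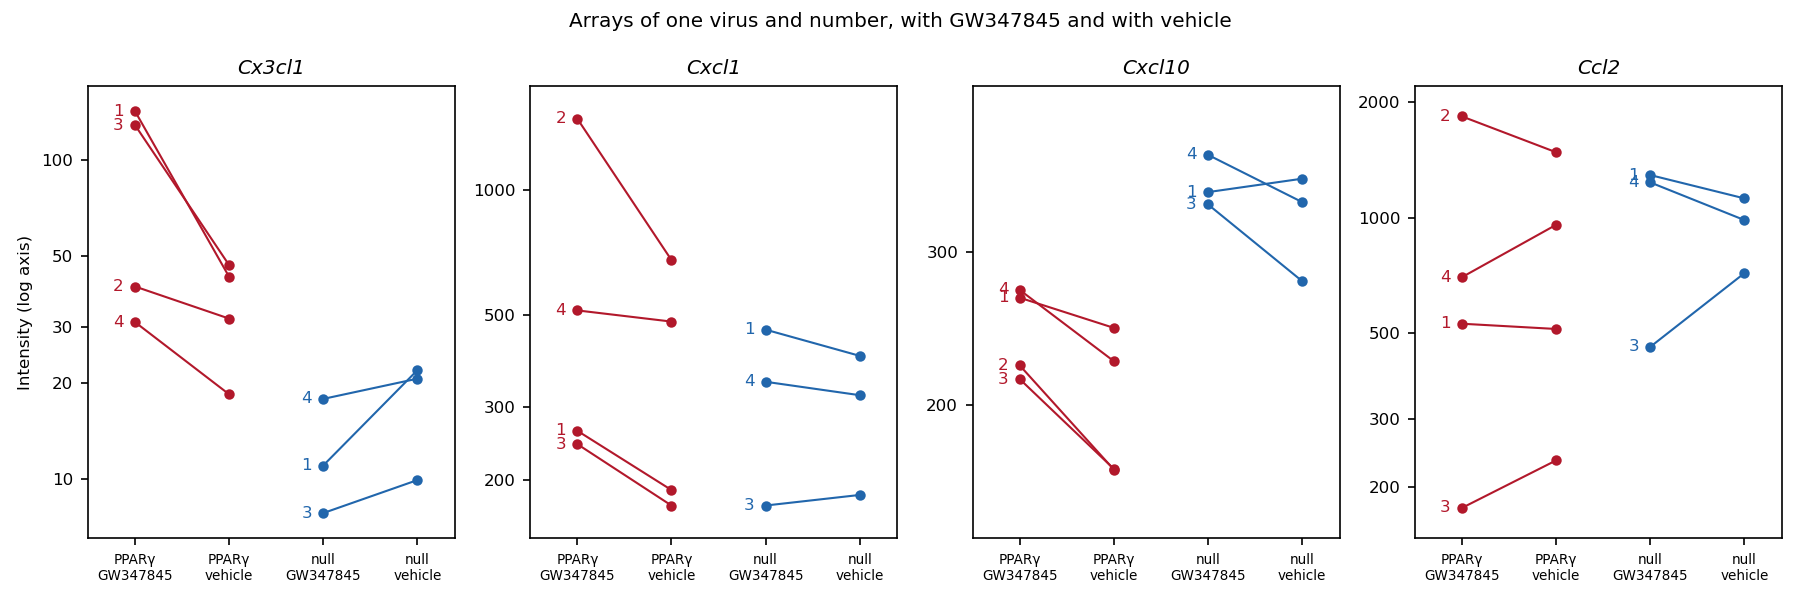
Intensity of Cx3cl1, Cxcl1, Cxcl10 and Ccl2 with GW347845 and with vehicle, with a line joining the 2 arrays of one virus and number (log axes; digits are replicate numbers; PPARγ virus red, null virus blue). In all 4 PPARγ virus pairs Cx3cl1, Cxcl1 and Cxcl10 are higher with GW347845, and for Ccl2 the pairs differ in direction.

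For the remaining genes the pairs did not share a direction under the PPARγ virus. Ccl2 was higher with GW347845 in 2 of 4 PPARγ virus pairs and 2 of 3 null virus pairs, Nfkbia in 1 of 4 and 2 of 3, Icam1 in 3 of 4 and 0 of 3, and Sod2 in 2 of 4 and 2 of 3. The counts were 3 of 4 and 2 of 3 for Ccl20 and 2 of 4 and 1 of 3 for Cxcl2. The 95% interval of the compound difference under the PPARγ virus was -1.46 to 1.21 for Ccl2 without the block and -0.46 to 0.21 with it. With the block it was -0.28 to 0.13 for Nfkbia and -0.13 to 0.18 for Sod2.

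Whether the compound acted differently under the 2 viruses was tested as an interaction. It passed for 0 of 9 genes and for 0% of all probe sets (limma), and 0 genes had an unadjusted p under 0.05. With the block 0 of 9 passed, against 0.0496% of all probe sets. Unadjusted p under 0.05 were then found for 2 of the 8 genes other than Cx3cl1 (Cxcl2 and Cxcl1) and for 5.8% of all. Cx3cl1 had one too, but it was in the test only through PPARγ virus arrays. For Cx3cl1 the interaction was 1.37 ± 0.67 (SE; limma adjusted p = 1, and 0.423 with the block). PPARγ virus with GW347845 against null virus with vehicle gave 0 calls in the 8 genes beside Cx3cl1 (limma), against 0.665% of all probe sets. Unadjusted p under 0.05 were found for 2 of the 8 and 8.48% of all probe sets. They were Cxcl10 (-0.42, 1.34-fold lower, limma adjusted p = 0.39) and Nfkbia (-0.53, 1.45-fold lower, 0.318). Their arrays did not overlap between the groups, as for 8.95% of all probe sets. Cx3cl1, counted apart because it entered the test through PPARγ virus arrays, differed by 1.81 (3.51-fold, limma adjusted p = 0.144). This comparison shares its arrays with the others above.

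Other genes of the pathway were counted from lists chosen with earlier results of these data known. Of 16 tested genes of the NF-κB machinery, 0 passed in any of 8 contrasts (limma), and their median virus difference over both media was 0.02. The subunit genes Nfkb1 (-0.01) and Rela (0.02) were named after their values were seen. The smallest p were those of the TNF receptor gene Tnfrsf1a (0.26, limma adjusted p = 0.267) and the apoptosis inhibitor gene Birc3 (-0.20, 0.314). Of 13 other NF-κB and cytokine response genes 0 passed, 10 were lower with the PPARγ virus and the median was -0.38. The tissue factor gene F3 (0.48, limma adjusted p = 0.175) and the cytokine gene Il1b (-0.41, 0.2) had the smallest p.

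Of 8 other tested chemokine genes 0 passed, 4 were lower and the median was -0.04, with Ccl4 at -0.44 (limma adjusted p = 0.296) and Pf4 at -0.40 (0.571). Of 11 receptor genes of these chemokines and adhesion proteins, 7 were on the array and 1, the integrin gene Itgb1 (0.05, limma adjusted p = 0.905), was bright enough to test. Among 12 antioxidant enzyme genes beside Sod2, 0 passed and the median was -0.02, with Gpx4 at -0.24 (limma adjusted p = 0.408) and Nqo1 at -0.52 (0.502). The corresponding median over all tested probe sets was -0.01.

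Genes whose log2 values most resembled each member over the 14 arrays were listed as a description, and the correlation includes the differences between groups and numbers. For Cxcl10 they were Ifi27 (Pearson r = 0.92), an interferon-induced gene, then Sord and Spetex2l2 (0.90 each), Donson (0.89) and Polr1b (0.88). Cx3cl1 was most like Ramp1 and Igfbp1 (r = 0.94 each). Ccl2 was most like Ptgs2 (r = 0.97), the inducible cyclooxygenase, and Cd44 (0.96), and Cxcl1 like Ppfibp2 and Hopx (0.90 each). Nfkbia was most like Arpc5 and Selenok (r = 0.88 each). The nearest to Ccl20 were Il13ra2 (0.91) and Slc20a1 (0.90), to Cxcl2 Zswim6 (0.88) and Ier3 (0.87), to Icam1 Fbln2 (0.90) and Safb2 (0.88), and to Sod2 Tcf12 (0.93) and Ugdh (0.90).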

How the data were processed

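The authors deposited 1 table of linear intensity values for 16 columns and 15923 probe sets of a rat oligonucleotide array, per the file headers. A 2% trimmed mean of 150 in each column shows that the deposited intensity values were scaled by the authors. The summary software is not given in the sources used here. Columns were mapped by their labels. Columns of null virus replicate 2 under both media were identical and were left out, which left 14 arrays. The number of arrays limits the precision.

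Values were taken as log2(intensity + 4.6), where 4.6 is the 10th percentile of positive values, so folds of dim genes are understated. Probe sets above 39.3 (the 40th percentile) in at least 4 arrays and no control were tested, 10078 in all, of which 8488 named 1 gene, 235 several and 1355 none. limma 3.58.1 in R 4.3.3 fitted 1 mean per group (empirical Bayes with trend) and gave 8 contrasts, adjusted by Benjamini-Hochberg over all tested probe sets, threshold 0.05. Cxcl10 was also tested by exact permutation. The fit was tested on simulated data. Figures used Python 3.11.15 and matplotlib 3.10.9.

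Replicate numbers come from the titles. Deviations from the group means of 7 of 7 same-number pairs of one virus correlated over 0.1 (r 0.45 to 0.70 across probe sets), so numbers pair vehicle and compound arrays within a virus. Across viruses 6 of 12 same-number pairs did (r -0.14 to 0.43), against 10 of 36 pairs of different numbers. There r was 0.30 to 0.43 for number 1 and -0.14 to -0.01 for number 3. Pairing across viruses was therefore mixed and was not relied on. A fixed block of virus and number was fitted for the compound, and a random one (correlation 0.534) and averages of paired arrays, both chosen after seeing the data, for the virus.

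The genes were those that the annotation pairs with the 10 symbols, all named. From each further list reported here, genes past the threshold in any contrast were named, and otherwise those with the 2 smallest p over both media. Likeness took the highest Pearson r, 5 genes for Cxcl10 and 2 for each other gene. One further gene list is not reported here. The genes, lists and markers were chosen with earlier results of these data known. Alternatives covered the pseudocount, filter, normalization, the doubly labelled array, groups fitted alone, trend, replicate block and each array left out.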

Additional observations from a re-analysis of the deposited data

Results flagged for a closer look

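Within the groups of 4 arrays, Ccl20 and Cxcl2 each had 1 array far below the others, in both cases array 3 of the PPARγ virus with vehicle. Ccl20 read 58.2 there, against 87.3 to 88.6 in the other 3 arrays of the group, and the gap was 0.964 of the group's range on the log2(intensity + 4.6) scale. Cxcl2 read 30.3 there, against 66.9 to 77.2 in the others, and the gap was 0.842 of the range on that scale. With 20 groups examined, chance marks about 1 in 20, and 2 were marked. Both marks fell on 1 array, so the 20 checks were not independent and the number of marks is no test. No difference of the compound effect between viruses passed its test (0 of 9 genes, limma, with 0 unadjusted p under 0.05). With the block within each virus 0 of 9 passed, and such p were found for 2 of the 8 genes beside Cx3cl1 and for Cx3cl1 itself.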

How the results depend on the processing

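The virus differences of Cxcl10, Nfkbia and Cx3cl1 over both media kept their direction under every alternative in which they were tested. The 3 calls, Cx3cl1 included, became 1 with the random replicate block within each virus (Cxcl10) and 0 with averaged arrays, and 1 to 3 with 1 array left out. The adjusted p of Cxcl10 lay between 0.00127 and 0.22 over 28 alternatives, of which 27 kept the call; Nfkbia was called in 14 of 28 and Cx3cl1 in 12 of 27. The 1 call in GW347845 became 0 with a pseudocount of 16, no filter, a 60th percentile filter, the array of 2 labels as null virus with GW347845, groups fitted alone or no trend, and 0 to 1 with 1 array left out.

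The replicate block over all groups takes the numbers to pair the viruses, for which the correlations were mixed. It gave 1 call in vehicle (Cxcl10), 4 in GW347845, 1 in the combined comparison (Ccl2) and 4 over both media. Among all probe sets, 4 passed for the virus in vehicle, 71 in GW347845, 154 over both media, 67 in the combined comparison, 6 for the compound under the PPARγ virus, 2 over both viruses and 0 for the interaction. In that order the block over all groups gave 34, 211, 414, 177, 14, 5 and 3. The fixed block within each virus gave 40, 14 and 5 for the last 3 and changed no call of the 9 genes, and the random one gave 42, 16 and 2, with 50 over both media. Groups fitted alone gave 1 in vehicle, 43 in GW347845, 42 in the combined comparison and 2 for the compound under the PPARγ virus. Without PPARγ virus arrays 2 and 4 the counts were 15 in vehicle, 412 over both media, 2 for the compound under the PPARγ virus and 1 over both viruses; averaged arrays gave 12 over both media. With 1 array left out they lay between 3 and 7 in vehicle, 31 and 71 in GW347845, 76 and 134 over both media, 39 and 71 in the combined comparison, 2 and 7 for the compound under the PPARγ virus and 1 and 4 over both viruses. All 14 arrays correlated best with an array of their own number. Without PPARγ virus arrays 2 and 4 the combined comparison had 1 call, Cx3cl1, whose lowest PPARγ virus values that setting left out.

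The exact p of Cxcl10 in vehicle was 0.0286 with all 16 columns, or when the array of 2 labels was taken as null virus with vehicle. With 1 array left out, the exact p ranged from 0.0571 to 0.133 for the virus in each medium, 0.171 to 0.343 for the compound under the PPARγ virus and 0.4 to 1 under the null virus. Of 2018 values of single genes under 30 alternatives, 47 lost a call, 8 gained one and 0 changed the sign of a called value. A further 12 uncalled values, all without PPARγ virus arrays 2 and 4, moved by over 1 SD within groups. The other 1951 stayed called or uncalled as before, the uncalled ones within 1 SD and the called ones at any size. Without those arrays Cx3cl1, still called, went from 1.51 to 2.16 over both media. The number of arrays limits the virus comparisons of Ccl2 and Cxcl1 most, whose SE over both media were 0.48 and 0.42.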

Other observations

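The array deposited under both null virus media was used in no comparison. It read 270.2 for Cxcl10, below the 277.5 to 387.7 of the 6 null virus arrays used. Cx3cl1 read 27, above their 7.8 to 21.9, Cxcl1 read 569.6, above their 173.3 to 460.9, and Sod2 read 2337.9, above their 1950.2 to 2266.2. Its values for Ccl2 (1073), Ccl20 (115.7), Cxcl2 (111.1), Nfkbia (361), Icam1 (113.2) and Vcam1 (11.1) lay within the ranges of those 6 arrays. The array's number is 2, the number with the highest Ccl2, Cxcl1 and Cxcl2 among PPARγ virus arrays of each medium.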
